A study of Mus musculus with 8 samples.

Results

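Stat3, Socs3, Il6ra, Lifr, Bcl2l1 and Tnfrsf12a are 6 of the 12193 gene loci for which RNA levels were deposited from AtT-20 cells, mouse pituitary tumour cells of the corticotrope type, which express Pomc, the gene of the ACTH precursor. They were chosen by symbol, as the transcription factor in the study's title, its feedback inhibitor, receptor chains that feed it, a survival gene it is known to control and the TWEAK receptor. The choice was made with earlier results of these data known. All cells were AtT-20 grown in DMEM with fetal bovine serum, in 4 groups of n = 2 libraries each. The Neo control line received water for 3 h, and so did the EGFR line. Further EGFR cultures were given EGF and collected after 3 h or 18 h. The labels do not say whether either line is a clone or a pool, what drives EGFR, from which species it comes or at what dose EGF was given. No Neo library with EGF and no water library at 18 h was analysed here, so time in culture and EGF cannot be told apart at 18 h.

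STAT3 is a latent transcription factor that is phosphorylated on tyrosine by JAK kinases at cytokine receptors or by growth factor receptors, pairs with itself and moves to the nucleus. The IL-6 receptor chain (Il6ra) and the LIF receptor (Lifr) both signal through the shared chain gp130 (Il6st), and in corticotropes cytokines of this family act on Pomc through STAT3. STAT3 induces Socs3, which binds the receptor and JAK complex and shuts the signal down. Bcl-xL, the main product of Bcl2l1, blocks mitochondrial cell death, and Tnfrsf12a encodes Fn14, the receptor of TWEAK, a gene known to be induced by growth factors.

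In 1-based mm10 coordinates, Stat3 (ENSMUSG00000004040) lies at chr11:100885098-100939540, Socs3 (ENSMUSG00000053113) at chr11:117966079-117970047, Il6ra (ENSMUSG00000027947) at chr3:89864059-89913196, Bcl2l1 (ENSMUSG00000007659) at chr2:152780668-152831728 and Tnfrsf12a (ENSMUSG00000023905) at chr17:23675447-23677449, all on the minus strand. Lifr (ENSMUSG00000054263) lies at chr15:7129559-7197489 on the plus strand. All 6 are protein-coding, and values cover the exons of a locus, so the long and short products of Bcl2l1 cannot be told apart. Of the Il6ra exon bases, 2.80% overlap other annotated genes, with the largest overlap in Gm42809 on the other strand. For Stat3 this share is 0.756%, with the largest overlap in Stat5a. Whether the libraries kept strand was not stated in the labels, so reads in those stretches cannot be assigned.

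The bases before the RefSeq start (GRCm38.p6) are shown for the 4 members with the largest increases after EGF (0.65 or more on the log2 scale at both times). Each runs 5′ to 3′ on the minus strand, and capitals mark a match to a searched pattern. The windows lie at chr11:117969367-117969616 for Socs3, chr3:89913197-89913446 for Il6ra, chr2:152831729-152831978 for Bcl2l1 and chr17:23677469-23677699 for Tnfrsf12a. The Tnfrsf12a stretch stops 19 bases before the start, since those bases are annotated as UTR.
Socs3: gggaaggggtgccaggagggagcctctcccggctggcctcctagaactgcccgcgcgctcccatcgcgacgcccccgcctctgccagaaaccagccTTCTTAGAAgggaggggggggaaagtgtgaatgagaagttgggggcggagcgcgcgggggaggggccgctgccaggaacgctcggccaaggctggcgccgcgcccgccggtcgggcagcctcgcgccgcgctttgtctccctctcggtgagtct
Il6ra: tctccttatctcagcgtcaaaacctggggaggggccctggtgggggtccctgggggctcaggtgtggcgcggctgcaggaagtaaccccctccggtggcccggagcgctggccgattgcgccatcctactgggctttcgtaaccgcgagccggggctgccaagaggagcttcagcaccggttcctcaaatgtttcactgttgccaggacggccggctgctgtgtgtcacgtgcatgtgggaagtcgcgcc
Bcl2l1: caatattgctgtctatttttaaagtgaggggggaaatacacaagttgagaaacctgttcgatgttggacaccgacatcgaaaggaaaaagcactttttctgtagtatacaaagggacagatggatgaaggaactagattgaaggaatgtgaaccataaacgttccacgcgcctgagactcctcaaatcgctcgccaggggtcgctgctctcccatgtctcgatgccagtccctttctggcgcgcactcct
Tnfrsf12a: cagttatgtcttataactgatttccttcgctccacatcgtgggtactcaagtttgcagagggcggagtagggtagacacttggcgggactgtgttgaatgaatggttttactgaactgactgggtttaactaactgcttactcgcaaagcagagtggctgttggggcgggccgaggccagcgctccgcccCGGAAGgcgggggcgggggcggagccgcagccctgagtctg

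The patterns were TTCNNNGAA, the form that STAT proteins bind, the same with 4 bases between TTC and GAA, and CGGAAG, a core that ETS factors bind, each searched on both strands in the 250 bases before every RefSeq start of a member. Socs3 held TTCTTAGAA, a match to TTCNNNGAA, 154 bases before the start. This pattern was in 7.02% of 32851 promoter windows of that length, the wider form was in 5.85% and CGGAAG was in 13.6%. Tnfrsf12a held CGGAAG 60 bases before the start (counted from the start itself, not from the end of the stretch shown). Of 3 Bcl2l1 windows, 1 held CGGAAG, 103 bases before its own start. That window is not the one shown, and all its 250 bases are annotated as UTR. The windows of Stat3, Il6ra and Lifr held none of these patterns. The Socs3 start used here lies inside the deposited locus, and 77 of the 250 bases shown are annotated as exon. All 250 bases shown for Il6ra lie within an annotated exon of Gm42809, on the other strand. A match describes letters, not binding.

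RNA levels are given as FPKM, fragments scaled by transcript length and library total, as the authors deposited them. FPKM is per length, so genes can be compared within a library. FPKM summed to 683834 to 808072 per library, with medians of 14.3 to 14.7, and replicates correlated across loci at r of 0.987 to 0.991. Small RNA loci held 39.0% and 33.2% of the sum in the Neo libraries and 29.1 to 32.8% in the 6 EGFR libraries. Egfr was 0.227 and 0.0663 FPKM in the Neo libraries and 25.9 to 31.9 FPKM in the EGFR libraries, as the line names state. Of 9 corticotrope markers, 7 had values, and Pomc lay between 6981 and 8930 FPKM in every library. At a limma adjusted p below 0.05, 0 of the 7 were called higher and 2 lower at 3 h of EGF. At 18 h 2 were higher and 2 lower, and between the lines with water 0 were higher and 2 lower. Of all tested loci, 11.8% were higher and 19.7% lower at 3 h, 13.2% and 18.7% at 18 h, and 3.11% and 2.90% between the lines. Pomc itself was not called with EGF, at a log2 fold change of −0.20 at 3 h (adjusted p = 0.0531) and −0.12 at 18 h (adjusted p = 0.206), though 5 alternatives called it lower at 3 h. Markers of other pituitary lineages, fibroblasts, endothelium and blood had 0 genes with values in the tables used here. In such bulk RNA, fewer cells with a transcript and less of it per cell cannot be told apart.

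**Figure D1:**
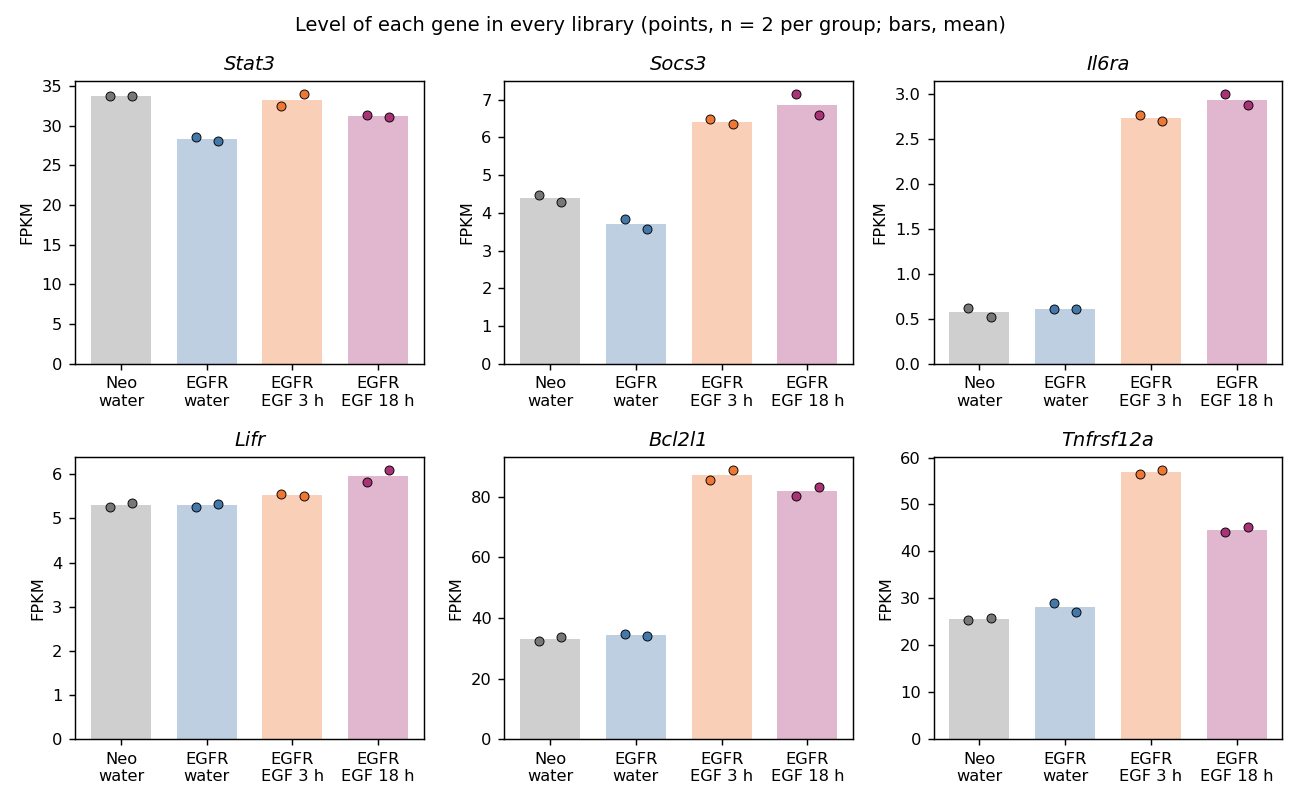
FPKM of the 6 genes in each library, 1 panel per gene with its own vertical axis; points are libraries and bars are means of n = 2. Il6ra, Socs3, Bcl2l1 and Tnfrsf12a sat higher in all 4 EGF libraries than in all 4 water libraries, while Stat3 after EGF lay above the EGFR water libraries, at 3 h around the Neo level and at 18 h below it, and Lifr moved little. The share of all loci that separate in this way was not computed.

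Among the receptor chains, Il6ra was at 0.625 and 0.523 FPKM in the Neo line and 0.608 and 0.604 FPKM in the EGFR line with water. After EGF it was at 2.77 and 2.70 FPKM at 3 h and 3.00 and 2.88 FPKM at 18 h. All 4 EGF libraries lay above all 4 water libraries, and the ratio of means was 4.51 at 3 h and 4.85 at 18 h. Lifr was at 5.26 and 5.34 FPKM in Neo, 5.26 and 5.33 FPKM in EGFR with water, 5.54 and 5.51 FPKM at 3 h and 5.81 and 6.09 FPKM at 18 h. The Lifr groups did not overlap after EGF, but the largest ratio of means was 1.12, at 18 h. Groups of n = 2 can separate without a call, as Lifr did at 3 h (limma adjusted p = 0.383). The share of all loci whose groups separate was not computed, here or for the genes below. Il6st, the shared gp130 chain, stood at 24.7 ± 2.26 FPKM with water, 27.2 ± 0.704 FPKM at 3 h and 28.2 ± 1.23 FPKM at 18 h (SD, n = 2), and it was not called at either time (log2 0.13, adjusted p = 0.133, and 0.18, adjusted p = 0.0588).

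Stat3 was at 33.7 and 33.8 FPKM in the Neo line and at 28.6 and 28.1 FPKM in the EGFR line with water. It was at 32.4 and 33.9 FPKM after 3 h of EGF and at 31.3 and 31.1 FPKM after 18 h. The EGFR water libraries were the lowest of the 8, and the 3 h libraries lay on both sides of the Neo libraries. Socs3 was at 4.48 and 4.28 FPKM in Neo and at 3.85 and 3.56 FPKM in EGFR with water. With EGF it was at 6.49 and 6.34 FPKM at 3 h and at 7.14 and 6.60 FPKM at 18 h, above every water library, with ratios of means of 1.73 and 1.85.

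Bcl2l1 was at 32.4 and 33.6 FPKM in Neo and at 34.7 and 34.0 FPKM in EGFR with water. It reached 85.5 and 88.7 FPKM after 3 h of EGF and 80.3 and 83.3 FPKM after 18 h, ratios of 2.54 and 2.38 to the EGFR water mean. Tnfrsf12a was at 25.5 and 25.8 FPKM in Neo, 28.9 and 27.2 FPKM in EGFR with water, 56.6 and 57.3 FPKM at 3 h and 44.1 and 45.2 FPKM at 18 h. Its 3 EGFR groups were each separate from the others, with the 18 h libraries between water and 3 h, at ratios of means to water of 2.03 and 1.59.

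The order of the 6 genes changed with EGF. With water in the EGFR line it was Bcl2l1, Stat3, Tnfrsf12a, Lifr, Socs3 and Il6ra, and Stat3 at 28.3 ± 0.368 FPKM and Tnfrsf12a at 28.1 ± 1.22 FPKM overlapped. In the Neo line Stat3 at 33.7 ± 0.0359 FPKM came before Bcl2l1 at 33.0 ± 0.872 FPKM, a gap smaller than the SD of Bcl2l1. After EGF, at both times, the order was Bcl2l1, Tnfrsf12a, Stat3, Socs3, Lifr and Il6ra. Socs3 passed Lifr, at 6.41 ± 0.0993 against 5.53 ± 0.0174 FPKM at 3 h and 6.87 ± 0.380 against 5.95 ± 0.194 FPKM at 18 h.

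The first comparison asked what 3 h of EGF did to these genes in the EGFR line. Bcl2l1, Il6ra, Tnfrsf12a and Socs3 rose, Stat3 rose slightly, and Lifr was not called. Differences are log2 fold changes of FPKM + 1, which understates genes at low FPKM, and a gene was called at a limma adjusted p below 0.05 over the 10874 loci that reached 1 FPKM in 2 or more libraries. The log2 fold change was 1.32 for Bcl2l1 (SE 0.0365, adjusted p = 3.11e-06), 1.22 for Il6ra (SE 0.0702, adjusted p = 8.10e-05) and 0.995 for Tnfrsf12a (SE 0.0372, adjusted p = 1.02e-05). It was 0.66 for Socs3 (SE 0.0560, adjusted p = 4.22e-04) and 0.22 for Stat3 (SE 0.0330, adjusted p = 0.00376). For Lifr it was 0.05, with a 95% interval of −0.05 to 0.15 (adjusted p = 0.383).

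So 5 of the 6 genes were called higher and 0 lower, where 11.8% of all tested loci were called higher and 19.7% lower. At an unadjusted limma p below 0.05 these counts were also 5 and 0. The share of all tested loci at that looser cut was not computed, here or for the unadjusted counts below. The median log2 fold change was 0.826 for the 6 and −0.041 for all tested loci. The 6 were chosen with earlier results of these data known, so neither the counts nor the median are independent of that choice. Il6ra was below 1 FPKM in every water library and entered the tested loci through its EGF libraries alone, so its place among the called genes is not independent of its rise. With no filter on any locus the limma adjusted p of Il6ra was 2.67e-04, and with a pseudocount of 0.1 in place of 1 its log2 fold change was 2.01. By size of increase among the 10874 loci, Bcl2l1 ranked 30, Il6ra 40, Tnfrsf12a 62, Socs3 120, Stat3 827 and Lifr 3085. No label says that the 2 libraries of a group came from separate cultures, so the p-values speak only for the spread among these libraries, and this may be technical.

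**Figure D2:**
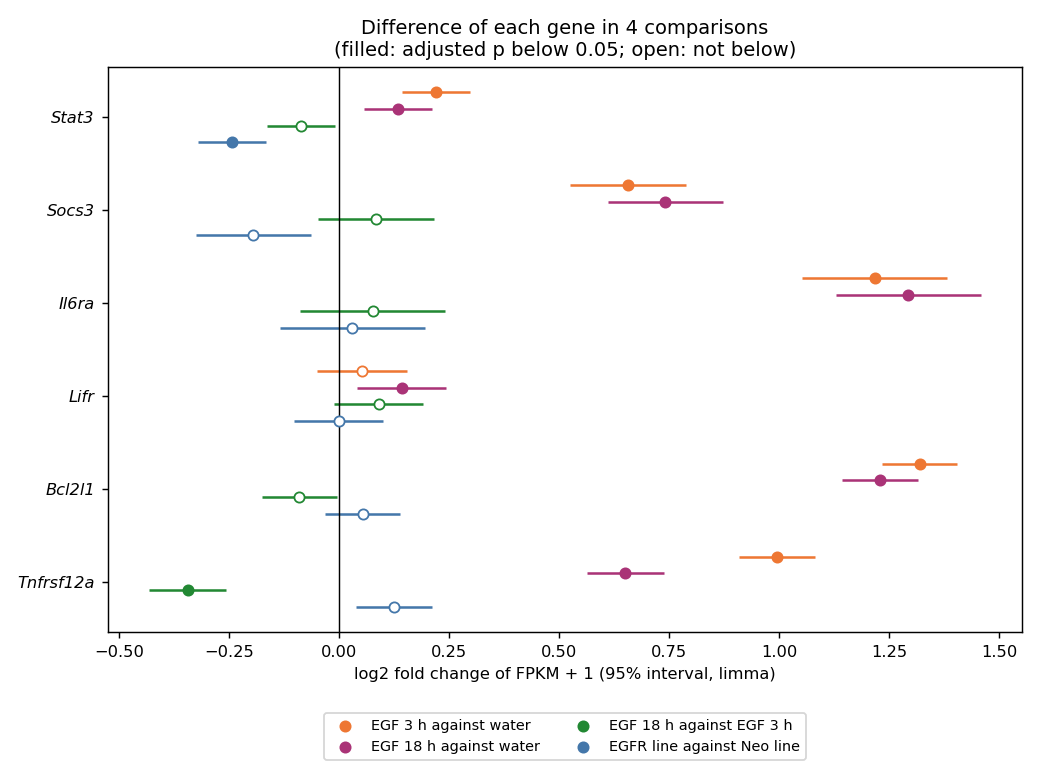
Log2 fold change of FPKM + 1 for each of the 6 genes in the 4 comparisons, with 95% intervals from limma as horizontal lines and a vertical line at 0. Bcl2l1 and Il6ra lie between 1.22 and 1.32 at both EGF times, Tnfrsf12a lies at 0.995 and 0.65, and Lifr stays within 0.15 of 0 throughout. Adding 1 FPKM understates Il6ra, whose ratios of means to water were 4.51 and 4.85, against 2.54 and 2.38 for Bcl2l1. Filled points have an adjusted p below 0.05.

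The second comparison set 18 h of EGF against the same water libraries, so the 3 h and 18 h values share their controls. Il6ra, Bcl2l1, Socs3 and Tnfrsf12a were still higher than with water, and Stat3 and Lifr differed by little. The log2 fold change was 1.29 for Il6ra (SE 0.0702, adjusted p = 3.21e-05), 1.23 for Bcl2l1 (SE 0.0365, adjusted p = 2.15e-06), 0.74 for Socs3 (SE 0.0560, adjusted p = 1.28e-04) and 0.65 for Tnfrsf12a (SE 0.0372, adjusted p = 3.66e-05). It was 0.13 for Stat3 (SE 0.0330, adjusted p = 0.0199) and 0.14 for Lifr (SE 0.0433, adjusted p = 0.0423).

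All 6 were called higher and 0 lower at 18 h, where 13.2% of tested loci were called higher and 18.7% lower, and the unadjusted limma p gave the same 6 and 0. Their median log2 fold change, again for genes chosen with earlier results known, was 0.696, against −0.031 over all tested loci. The count was 4 to 5 when any 1 of the 8 libraries was left out. Lifr lost its call in each of those 8 fits, with adjusted p from 0.0537 to 0.199, and Stat3 lost its call without water 1 (0.0761), water 2 (0.116), 18 h EGF 1 (0.103) or 18 h EGF 2 (0.0781). With all libraries scaled to a common FPKM sum, both calls were lost (adjusted p = 0.107 for Lifr and 0.0892 for Stat3). Il6ra, Bcl2l1, Socs3 and Tnfrsf12a were called higher at both times under every alternative that gave them a value.

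The direct comparison of 18 h with 3 h of EGF asked whether the changes lasted. Tnfrsf12a was lower at 18 h, by a log2 fold change of −0.34 (SE 0.0372, adjusted p = 0.00110), from 56.9 ± 0.517 to 44.7 ± 0.819 FPKM (SD, n = 2). It kept 57.4% of its 3 h rise in mean FPKM. The other 5 were not called. Their log2 differences were −0.09 for Bcl2l1 (95% interval −0.18 to −0.00, adjusted p = 0.0978), −0.09 for Stat3 (−0.16 to −0.01, adjusted p = 0.0848), 0.08 for Socs3 (−0.05 to 0.22, adjusted p = 0.281), 0.08 for Il6ra (−0.09 to 0.24, adjusted p = 0.434) and 0.09 for Lifr (−0.01 to 0.19, adjusted p = 0.147). So 1 of 6 was called lower and 0 higher, where 16.0% of tested loci were called lower and 17.7% higher. The unadjusted limma p was below 0.05 for 3 lower and 0 higher, with no share of all loci at that cut to set beside them. Stat3 was called lower at 18 h with median-ratio scaling (adjusted p = 0.0357) and with quantile scaling (adjusted p = 0.0277).

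Between the 2 lines with water, Stat3 was the single member called. It was lower in the EGFR line, by a log2 fold change of −0.24 (SE 0.0330, adjusted p = 0.0112), from 33.7 ± 0.0359 to 28.3 ± 0.368 FPKM. Socs3 was not called, at −0.19 (95% interval −0.33 to −0.06, adjusted p = 0.0872), and neither was Tnfrsf12a, at 0.12 (0.04 to 0.21, adjusted p = 0.0941). Bcl2l1 at 0.05 (−0.03 to 0.14), Il6ra at 0.03 (−0.13 to 0.19) and Lifr at −0.00 (−0.10 to 0.10) had adjusted p of 0.396 to 0.995, and the sign for Lifr turned with common-sum or quantile scaling. The count of 1 of 6 lower and 0 higher stands beside 2.90% of tested loci lower and 3.11% higher, and by the unadjusted limma p 2 were lower and 1 higher. The small RNA share was higher in the Neo libraries, and its part in the Stat3 difference was not tested. With all libraries scaled to a common FPKM sum the Stat3 difference was −0.16 (limma adjusted p = 0.126). Under that scaling the median over all tested loci was 0.091, against 0.013 in the main fit. The Stat3 call was kept with median-ratio and quantile scaling. It was lost without Neo 1 (log2 −0.24), water 1 (−0.26) or water 2 (−0.23). The water libraries of the EGFR line serve in this comparison and in both EGF comparisons against water, so their low Stat3 enters all 3.

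The other genes of the pathway were taken from 6 lists of ligands and receptors, kinases and STATs, inhibitors, further STAT3 targets, the BCL2 family and TWEAK receptor signalling, 104 genes in all, of which 55 had values and were tested. At 3 h, 19 were called higher, 15 lower and 21 neither, and the median was 0.033, against −0.041 over all tested loci, of which 11.8% were called higher and 19.7% lower. With all libraries scaled to a common FPKM sum the 15 lower became 5, and the 2142 lower among all tested loci became 440. At 18 h, 16 were called higher, 7 lower and 32 neither, with a median of 0.046 against −0.031 over all tested loci, of which 13.2% were higher and 18.7% lower. The counts of the single lists below stand beside these same shares. Like the members, the lists were chosen with earlier results of these data known. Without 1 library the 3 h counts fell to 11 higher (without water 2) or 12 (without 3 h EGF 1), and to 5 lower (without water 1) or 6 (without 3 h EGF 1). The 18 h count of higher genes fell to 9 without water 2 and to 10 without 18 h EGF 2. At 18 h against 3 h, 13 were higher and 11 lower, where 17.7% and 16.0% of all tested loci were. With a common FPKM sum the 13 became 5, and the 1922 higher among all tested loci became 863. Between the lines 1 was higher and 2 lower, where 3.11% and 2.90% were.

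**Figure D3:**
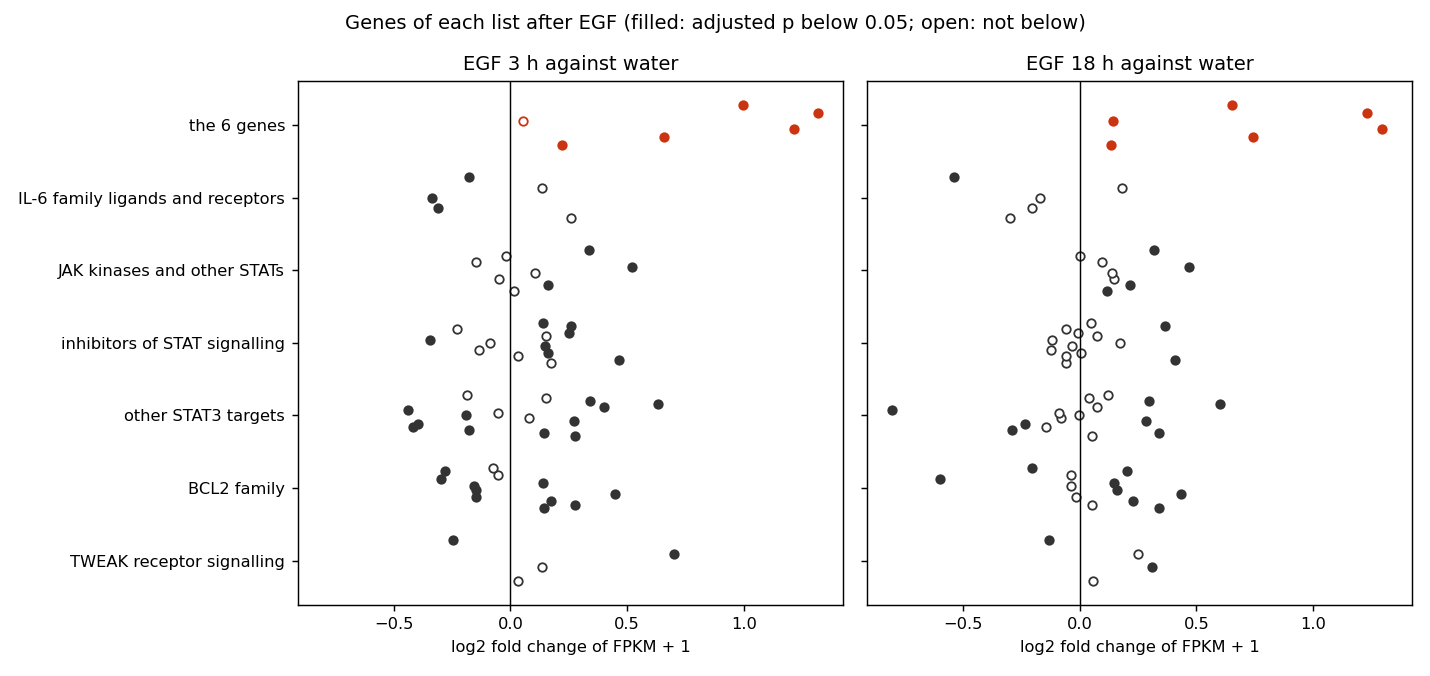
Log2 fold change of FPKM + 1 for the 6 genes (red) and for each tested gene of the pathway lists, with 3 h of EGF against water on the left and 18 h on the right. Points are genes, filled where the limma adjusted p is below 0.05, and their height within a row has no meaning. At 3 h the BCL2 family has 5 higher and 5 lower of 12, and the inhibitors of STAT signalling have 6 higher and 1 lower of 13.

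Of the IL-6 family ligands and receptors, 5 of 17 had values, and 3 were called lower at 3 h and 1 at 18 h, with 0 higher (limma; at an unadjusted p below 0.05, 0 at 3 h and 1 at 18 h). Without water 1, 1 was called higher at each time. Il11ra1, the IL-11 receptor chain, fell from 16.6 ± 0.548 to 14.6 ± 0.541 FPKM at 3 h and 11.1 ± 0.161 FPKM at 18 h (log2 −0.18, adjusted p = 0.0172, and −0.54, adjusted p = 1.22e-04). Part of its sequence, 98.9%, is shared with Gm13305, so the source of its reads is uncertain. Ctf1, which encodes cardiotrophin 1, fell at 3 h (log2 −0.31, adjusted p = 0.0372). All 3 of the 3 h calls were lost without water 1, and 2 were lost without 3 h EGF 1 or without 3 h EGF 2. That of Ctf1 was also lost without either Neo library and under all 3 scalings.

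Of the JAK kinases and other STATs, 8 of 11 had values, and 3 were called higher at 3 h and 4 at 18 h, with 0 lower (limma; at an unadjusted p below 0.05, 1 at 3 h and 0 at 18 h). Stat6, the IL-4 STAT, rose from 7.33 ± 0.334 to 9.52 ± 0.294 and 9.37 ± 0.269 FPKM (log2 0.34, adjusted p = 0.00387, and 0.32, adjusted p = 0.00368). Jak2 rose by 0.16 at 3 h (adjusted p = 0.0188) and 0.22 at 18 h (adjusted p = 0.00563), and Jak1 rose at 18 h (log2 0.12, adjusted p = 0.0227). Without water 1, water 2 or 3 h EGF 1, 1 of the 3 h calls was left, and without water 1, water 2 or 18 h EGF 2, 2 of the 18 h calls. The 3 h call of Jak2 was lost without water 1, water 2 or 3 h EGF 1, and the 18 h call of Jak1 without either water library or either 18 h EGF library. Stat3 was the most abundant of the 5 STATs with values in every group, at 45.8% of their summed FPKM in Neo, 42.0% with water in the EGFR line, 41.2% at 3 h and 39.4% at 18 h.

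Of the inhibitors of STAT signalling, 13 of 18 had values. At 3 h, 6 were called higher and 1 lower, and at 18 h 2 were higher and 0 lower (limma; at an unadjusted p below 0.05, 2 lower, and without water 2, 1 called lower). Socs5, a relative of Socs3 that also acts on EGFR, rose from 5.41 ± 0.252 to 7.86 ± 0.209 FPKM at 3 h and 7.52 ± 0.550 FPKM at 18 h (log2 0.47, adjusted p = 0.00188, and 0.41, adjusted p = 0.00221). Ptpn9, a tyrosine phosphatase, rose at both times (log2 0.26, adjusted p = 0.00652, and 0.36, adjusted p = 0.00113). Ptpn2, a phosphatase that acts on JAKs and STATs, rose at 3 h (log2 0.25, adjusted p = 0.00301) and was at −0.01 at 18 h (adjusted p = 0.917), with a sign that turned under all 3 scalings. Pias4, a SUMO ligase that binds STATs, fell at 3 h (log2 −0.34, adjusted p = 0.00207). Without water 2 the 3 h count was 3 higher, and without 3 h EGF 2 it was 2 lower. Among the 5 SOCS genes with values Socs3 was the lowest with water in both lines, at 5.60% of their sum in the EGFR line. It ranked 4 of 5 after EGF, at 8.31% at 3 h and 9.71% at 18 h, ahead of Socs4.

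Of the further STAT3 targets, 15 of 36 had values, with 6 called higher and 5 lower at 3 h and 4 higher and 3 lower at 18 h. Irf1, an interferon response factor, rose from 8.32 ± 0.396 to 13.5 ± 1.08 FPKM at 3 h and 13.2 ± 0.380 FPKM at 18 h (log2 0.63, adjusted p = 6.59e-04, and 0.60, adjusted p = 4.38e-04). Klf4, a zinc finger factor, rose at 3 h (log2 0.40, adjusted p = 7.06e-04) and was at 0.07 at 18 h (adjusted p = 0.189). Gadd45b, a stress response gene, fell from 11.4 ± 0.320 to 8.13 ± 0.182 and 6.08 ± 0.149 FPKM (log2 −0.44, adjusted p = 8.24e-04, and −0.81, adjusted p = 3.41e-05). With water it was higher in the EGFR line than in Neo, where it was at 9.19 FPKM (log2 0.28, limma adjusted p = 0.0183). Pim1, a survival kinase, fell at 3 h (log2 −0.42, adjusted p = 0.00157). The 3 h count of lower genes was 3 without water 1, water 2 or 3 h EGF 1.

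In the BCL2 family without Bcl2l1, 12 of 14 genes had values, and 5 were called higher and 5 lower at 3 h (11.8% and 19.7% of all tested loci) and 6 higher and 2 lower at 18 h (13.2% and 18.7%). With a common FPKM sum these were 4 and 0 at 3 h and 3 and 1 at 18 h. Of all tested loci, 1346 were then called higher and 440 lower at 3 h, and 1189 and 705 at 18 h. Bcl2, a survival member, rose by 0.145 on the log2 scale at 3 h (adjusted p = 0.0275) and 0.34 at 18 h (adjusted p = 7.65e-04). Bak1, a pore-forming death member, rose at both times (log2 0.45, adjusted p = 0.00189, and 0.43, adjusted p = 0.00140). With water it was lower in the EGFR line, at 6.01 FPKM against 7.31 FPKM in Neo (log2 −0.25, limma adjusted p = 0.0497, close to the threshold). Of its exon bases, 25.5% overlap other annotated genes, with the largest overlap in Ggnbp1. Bik, a BH3-only death member, fell from 6.62 ± 0.445 to 5.21 ± 0.330 and 4.02 ± 0.213 FPKM (log2 −0.30, adjusted p = 0.0132, and −0.60, adjusted p = 5.37e-04). Bbc3, which encodes PUMA, fell at 3 h (log2 −0.28, adjusted p = 0.00936) and was higher at 18 h (log2 0.20, adjusted p = 0.0273).
The counts moved with single libraries. Higher at 3 h became 3 without water 1 and 2 without water 2 or 3 h EGF 1, and lower at 3 h became 0 without water 1 or 3 h EGF 1, 2 without water 2, and 3 without 18 h EGF 1 or 18 h EGF 2. Higher at 18 h became 3 without water 1, 18 h EGF 1 or 18 h EGF 2 and 2 without water 2, and lower at 18 h became 1 without water 1, 18 h EGF 1 or 18 h EGF 2. Without water 1 or 3 h EGF 1, the 3 h calls of Bik, Bcl2 and Bbc3 were lost, and without water 2 that of Bcl2. The 18 h call of Bbc3 was lost without water 1, water 2 or 18 h EGF 2.

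Bcl2l1 moved up within this family. It ranked 4 of 13 by FPKM in both lines with water, behind Bax, Mcl1 and Bad, at 9.97% of the summed level in the EGFR line. After EGF it ranked 1, at 21.8% of the sum at 3 h and 20.1% at 18 h. At 3 h its 85.5 and 88.7 FPKM lay above the 82.4 and 82.5 FPKM of Mcl1 and the 72.5 and 72.7 FPKM of Bax. At 18 h its 80.3 and 83.3 FPKM overlapped the 78.7 and 80.8 FPKM of Bax, and these 2 neighbours did not differ beyond their spread. Of the exon bases, 20.5% for Bad and 12.2% for Bax overlap other annotated genes, against 0% for Bcl2l1 and Mcl1. Reads in those stretches cannot be assigned, so the ranks beside Bad and Bax are uncertain.

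**Figure D4:**
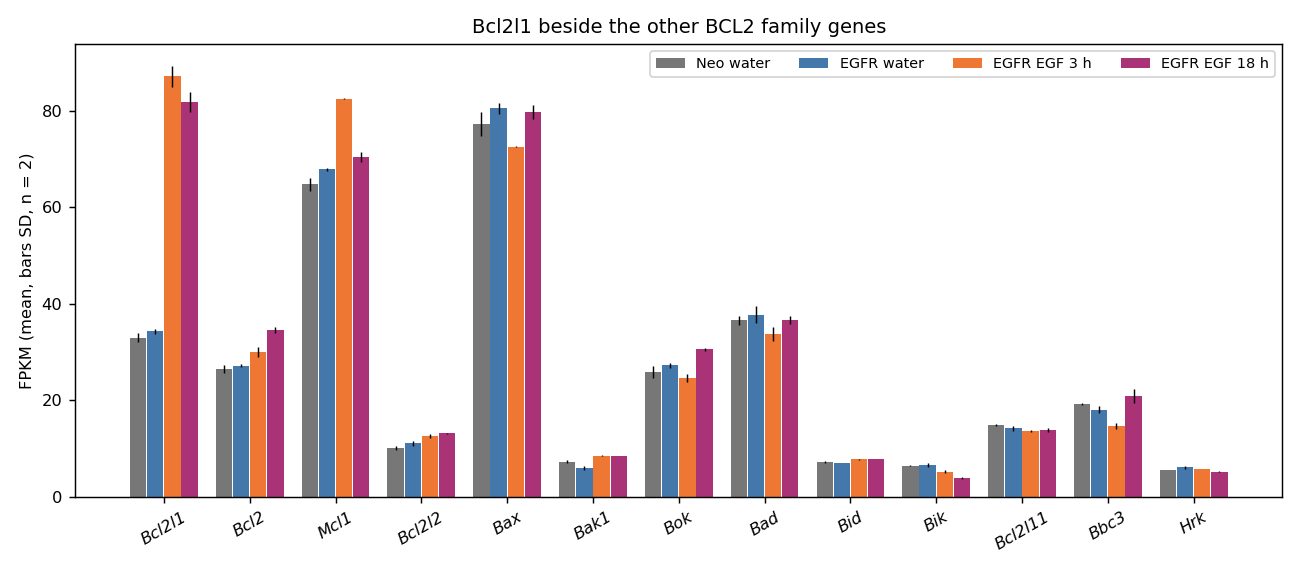
Mean FPKM of the BCL2 family genes with values in the 4 groups (bars; lines are SD, n = 2 libraries). Bcl2l1 goes from 34.3 FPKM with water in the EGFR line to 87.1 FPKM at 3 h and 81.8 FPKM at 18 h. It lies above Mcl1 and Bax at 3 h and overlaps Bax at 18 h.

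In TWEAK receptor signalling, 4 of 10 genes had values, with 1 called higher and 1 lower at each time. Traf5, an adaptor of TNF receptors, rose from 2.52 ± 0.335 to 4.73 ± 0.553 FPKM at 3 h (log2 0.70, adjusted p = 0.00548) and was at 3.19 ± 0.487 FPKM at 18 h (adjusted p = 0.147). Traf3, an adaptor that restrains noncanonical NF-κB, rose at 18 h (log2 0.31, adjusted p = 0.0215). Birc2, a ubiquitin ligase of the same complexes, fell at 3 h (log2 −0.25, adjusted p = 0.00292) and at 18 h (log2 −0.13, adjusted p = 0.0268). Both 18 h calls were lost without water 1, water 2 or 18 h EGF 2, and that of Birc2 also without 18 h EGF 1.

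The genes whose levels followed each member most closely were found by Pearson's r of log2(FPKM + 1) over the 8 libraries, among tested genes with a mean FPKM of at least 5. Clone, predicted, pseudogene and small RNA names were left out, which gave 7977 candidates (7978 for Il6ra). That filter works on symbols and also drops other genes, such as those whose symbol begins with Rn or Sca. These are descriptions over 8 libraries that share 4 groups. For Bcl2l1 they were Dusp5, a phosphatase of ERK (r = 0.998), Tec (0.997) and Mob3a (0.997), and for Il6ra they were Synj2 (0.997), Dusp5 (0.996) and Mb21d2 (0.996). Dusp5 was at 28.5 FPKM with water, 107 FPKM at 3 h and 99.4 FPKM at 18 h. For Tnfrsf12a they were Cmtm4 (0.997), Schip1 (0.995) and Xkr7 (0.995), and Schip1 was at 30.1, 46.5 and 40.0 FPKM in the same groups. For Socs3 they were Acap2 (0.997), Golph3 (0.992) and Tanc1 (0.992), and Golph3 was at 49.1, 71.9 and 80.1 FPKM. Stat3 was followed less closely, by Ranbp9 (0.972), Stc2 (0.966) and Ubqln1 (0.955), and Lifr by Tdrd7 (0.987), Triobp (0.982) and Parp9 (0.979). Synj2, Tec and Parp9 were below 5 FPKM in every water library. They reached the mean of 5 through their EGF libraries alone, so their place among the candidates is not independent of their rise. Of the exon bases, 59.0% for Mob3a, 39.1% for Schip1 and 22.1% for Dusp5 overlap other annotated genes. The largest overlaps were with Gm26541, Iqschfp and AC137853.2, in that order. Of the longest Schip1 transcript, 90.6% matches Iqschfp, and of that of Mob3a, 71.7% matches Gm26541, so the source of their reads is uncertain.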

How the data were processed

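RNA was measured by RNA-seq in 8 AtT-20 libraries, 2 for each of 4 groups taken from the labels. The authors deposited FPKM for 12193 loci per library, which were used as deposited. Build mm10 and the tools DESeq (no version), HTSeq 0.5.4, TopHat2 2.0.8 and Trimmomatic 0.22 come from the submitters' processing notes. Sources used here do not give depth, strand or the program that made the FPKM. At the library total that gave the highest share, 37.7 to 43.9% of low FPKM values lay within 0.12 of a whole read. Chance gives 24% at a fixed total, and the chance level for the best of many totals was not computed. Reads were therefore not recovered and no interval from counts is given. FPKM divides by the library total, so a few abundant transcripts move all others.

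The 10874 loci that reached 1 FPKM in 2 or more libraries were tested with limma-trend on log2(FPKM + 1), all 4 groups in 1 fit (residual degrees of freedom 4, prior 3.29), and Benjamini-Hochberg adjustment over all loci of a comparison and a threshold of 0.05. The procedure was tested on simulated data with independent noise. These held no library-wide shift and no change as small as those of Stat3 or Lifr, so the test does not speak to either. The members and the lists (IL-6 family ligands and receptors, JAK kinases and other STATs, inhibitors of STAT signalling, other STAT3 targets, BCL2 family, TWEAK receptor signalling, corticotrope and other cell markers) were chosen with earlier results of these data known. Named were the members, Egfr, Pomc, up to 4 called genes per list by largest change at either EGF time, and per member the 3 genes of highest r. A few genes so chosen enter the counts but are not reported here by name. Il6st, Mcl1, Bax and Bad were named after their values were seen, as neighbours of the members. A symbol with several rows was taken at its highest mean. Annotation came from GENCODE M21 and promoters from the RefSeq GRCm38.p6 table, and transcripts were compared with minimap2 2.31 (at least 95% identity over 200 bases). Alternatives were a pseudocount of 0.1, no filter or FPKM of 5, 3 scalings, 2 groups, no trend, a replicate block, left-out libraries and protein-coding genes only, and, chosen after seeing the data, a crossed block. R 4.3.3, limma 3.58.1, Python 3.11.15, pandas 2.3.3, NumPy 2.4.6 and matplotlib 3.10.9 were used.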

Additional observations from a re-analysis of the deposited data

Results flagged for a closer look

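Levels differed between 18 h and 3 h of EGF for 13 named genes, by the direct limma comparison of the 2 times. With no 18 h water library analysed here, a different effect of EGF and time in culture cannot be told apart. Lower at 18 h were Tnfrsf12a (log2 −0.34), Il11ra1 (−0.36), Ptpn2 (−0.26), Gadd45b (−0.37), Klf4 (−0.33), Bik (−0.31) and Traf5 (−0.45). Higher at 18 h were Jak1 (0.10), Pias4 (0.23), Bcl2 (0.20), Pim1 (0.27), Bbc3 (0.48) and Birc2 (0.12). Tnfrsf12a, Il11ra1, Ptpn2, Gadd45b, Klf4, Pim1 and Bbc3 were called under every alternative run. Jak1 and Birc2 were called under 9 of 19 alternatives, Traf5 under 15 of 18, Bcl2 under 17 of 19, and Pias4 and Bik under 18 of 19.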

How the results depend on the processing

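Il6ra, Socs3, Bcl2l1 and Tnfrsf12a kept their direction and call in both EGF comparisons under all alternatives that gave a value; an FPKM filter of 5 gave Il6ra none. Stat3 at 3 h also kept its call (log2 0.19 to 0.30). Members' calls were lost 18 times at 18 h (Stat3 and Lifr) and 4 times between the lines (Stat3), and the cause was not tested. Of the other named genes, calls lost to common-sum scaling were those of Il11ra1, Ctf1, Bik, Bcl2, Bbc3 and Birc2 at 3 h and Jak1, Bbc3 and Birc2 at 18 h. With no filter Ctf1 at 3 h and Bbc3 and Traf3 at 18 h lost theirs.

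Common-sum scaling gave 5 pathway genes and 440 loci lower at 3 h, 705 loci lower at 18 h, and, at 18 h against 3 h, 5 pathway genes and 863 loci higher. Between the lines it gave 0 members, 1 pathway gene and 103 loci lower. The share of calls that were higher was 37.5% at 3 h, against 53.1% with median-ratio, 75.4% with common-sum and 47.4% with quantile scaling. At 18 h these were 41.4%, 53.5%, 62.8% and 45.9%, at 18 h against 3 h 52.5%, 51.0%, 39.4% and 48.3%, and between the lines 51.8%, 43.9%, 75.0% and 50.1%. Members lower at 18 h against 3 h were 2 with median-ratio or quantile scaling. Between the lines, pathway genes higher were 0 with only the 2 groups and 2 with protein-coding genes or the crossed block. Pathway genes lower were 1 with no filter, only the 2 groups, no trend or the block, 4 with quantile scaling and 5 with protein-coding genes. All loci higher were 135 and lower 158 with only the 2 groups, and 530 higher with protein-coding genes.

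Reversed, all uncalled, were Ptpn2 at 18 h (log2 0.0265 with median-ratio, 0.0285 with common-sum and 0.0147 with quantile scaling, −0.0378 to 0.0265 with 1 library left out), and between the lines Il6ra (−0.0166 to 0.0766 with 1 left out), Lifr (0.0700 with common-sum and 0.0167 with quantile scaling, −0.0102 to 0.00893 with 1 left out) and Pomc (0.0768 with quantile scaling).

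With 1 library left out, counts were, at 3 h, 11 to 20 pathway genes higher and 5 to 14 lower, and 616 to 1297 loci higher and 808 to 2299 lower. At 18 h they were 4 to 5 members, 9 to 17 and 5 to 7 pathway genes, and 847 to 1439 and 927 to 2171 loci. At 18 h against 3 h they were 4 to 13 and 6 to 11 pathway genes and 1056 to 1896 and 817 to 1749 loci. Between the lines they were 0 to 1 members lower, 0 to 1 and 0 to 2 pathway genes, and 22 to 381 and 63 to 308 loci.

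Samples that share a replicate number did not deviate together (r of 0.000595 at 3 h, −0.0593 at 18 h, −0.108 at 18 h against 3 h and −0.172 between the lines), so the numbers were not taken as pairs. The replicate block gave 1160 loci higher and 1922 lower at 3 h, 1310 and 1879 at 18 h, 1795 and 1578 at 18 h against 3 h and 183 and 199 between the lines. Lifr lost its 18 h call under the block (adjusted p = 0.0592). The crossed block gave 1593 higher and 1399 lower at 18 h against 3 h and 252 and 251 between the lines. Depth is unknown, and 2 libraries a group limit the precision.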
